A study of Mus musculus and Homo sapiens
Mus musculus with 12 samples.

Results

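The metabotropic glutamate receptors Grm2 to Grm8 are 7 of the 34496 genes listed in 7 mouse brain libraries made by snHH-seq, a droplet method that primes total RNA of fixed single nuclei with random primers. They were taken by symbol, without use of any measured value. The tissue was brain of wild-type C57BL/6J male mice with no other treatment, ground in liquid nitrogen before nuclei were isolated and fixed. The 4 groups differed in storage and in the reverse transcription primer: No_index_frozen, Index_frozen and No_index_fresh had 2 libraries each and Index_fresh had 1. Index libraries used a primer that carries the well-specific preindex barcode and No_index libraries a primer without it. The primer was taken from the titles, since the treatment field goes against the title in 4 of the 7 libraries. The first cell barcode listed was 40 bases long in each Index library and 30 in each No_index library, which goes with the titles. No label says that libraries of a group came from separate animals, so p-values measure the spread between these libraries, which may be technical.

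The receptors are class C G protein-coupled receptors that bind glutamate through a large extracellular domain and act as dimers. Grm5 belongs to group I, which couples to Gq, activates phospholipase C and releases calcium from internal stores. Grm2 and Grm3 form group II, and Grm4, Grm6, Grm7 and Grm8 group III; both couple to Gi/o and lower cyclic AMP. Grm5 is mostly postsynaptic, Grm2, Grm4, Grm7 and Grm8 are known best from presynaptic terminals, Grm3 is also carried by astrocytes, and Grm6 is the receptor of retinal ON bipolar cells.

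The libraries held 700 to 3100 nuclei and 8605214 to 42439731 unique fragment identifiers (UFIs, the molecule counts of the method), with a median of 9011.5 to 27543 UFIs per nucleus. At most 10 cell barcodes were shared by 2 libraries. The 11198 nuclei formed 24 classes, of which 18 were neuron-like and 17 could be named from marker genes, and the 7 unnamed clusters held 3227 nuclei. The tissue makeup was not equal between libraries. Kidney tubule-like nuclei numbered 268 and 213 in the Index_frozen libraries and 0 in all others. Cerebellar granule neuron-like nuclei numbered 75 and 92 in No_index_frozen, 0 and 1 in Index_frozen, 40 and 49 in No_index_fresh and 3 in Index_fresh. Some tests of the receptors are given with and without these nuclei. The likeness of patterns over classes is given with them only. Pathway genes are given in all nuclei, which hold them, or in neuron-like sums, which leave them out. An unnamed neuron-like cluster led by Ano2 and Ano1 was also unequal between libraries. It had 0 nuclei in both No_index_frozen libraries, 43 and 39 in Index_frozen, 26 and 26 in No_index_fresh and 17 in Index_fresh. It is in the sums of all and of neuron-like nuclei, and no test of these sums left it out.

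Grm7 and Grm5 gave most of the receptor signal. Levels are CPM, the UFIs of a gene scaled to a common total of UFIs per library, given as mean ± SD over 7 libraries. Because random primers bind along the whole unspliced RNA, levels of different genes are compared mainly per kb of gene span, with spans from the RefSeq annotation of GRCm38.p6. This scale takes UFIs as evenly spread over the span, which was not tested. UFIs of exons and introns were not told apart, so a short gene may be set too high against long ones. Grm5 (chr7:87583981-88135063, 551.083 kb) had 300920 UFIs and 1660 ± 154 CPM, or 3.01 ± 0.28 CPM per kb. Grm7 (chr6:110645349-111567230, 921.882 kb) had 397262 UFIs and 2197 ± 149 CPM, or 2.38 ± 0.16 CPM per kb. Grm5 thus stood above Grm7 per kb, while Grm7 had more UFIs in all. Grm3 (chr5:9485236-9725352, 240.117 kb) had 329 ± 40.9 CPM, or 1.37 ± 0.17 per kb. Grm4 (chr17:27422387-27513826, 91.44 kb) had 110 ± 37.3 CPM, or 1.20 ± 0.41 per kb. Grm2 (chr9:106644534-106656109, 11.576 kb) had 2494 UFIs and 13.2 ± 4.65 CPM, or 1.14 ± 0.40 per kb. Per kb, the ranges of Grm2, Grm3 and Grm4 over the libraries overlapped, so these 3 receptors could not be ordered. Grm8 (chr6:27275121-28135146, 860.026 kb), with 476 ± 28.4 CPM, was below them per kb at 0.55 ± 0.03.

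Grm6 (chr11:50850369-50866208, 15.84 kb) was all but undetected. It had 9 UFIs in all: 0 and 0 in No_index_frozen, 1 and 2 in Index_frozen, 3 and 1 in No_index_fresh and 2 in Index_fresh. At this depth no class could be said to hold or to lack it, and Grm6 is left out of the class comparisons.

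The other 6 receptors were set against each other over the 24 classes, which were built without the receptors and their pathway genes. Below, a class level is the mean CPM over the libraries with at least 10 nuclei of that class. Neighbours in the order of class means were compared within libraries by a two-sided exact sign-flip permutation test on log2(CPM + 1). Of 130 neighbouring pairs, 10 had an unadjusted p under 0.05 and 0 had an adjusted one. The smallest adjusted p was 0.339, and with 7 libraries the test cannot give an unadjusted p below 0.015625. With adjustment over 130 pairs, an adjusted p under 0.05 would need many pairs at that lowest value. A step seen in 7 of 7 libraries could therefore hardly pass, and its adjusted p does not show that the classes were alike.

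**Figure D1:**
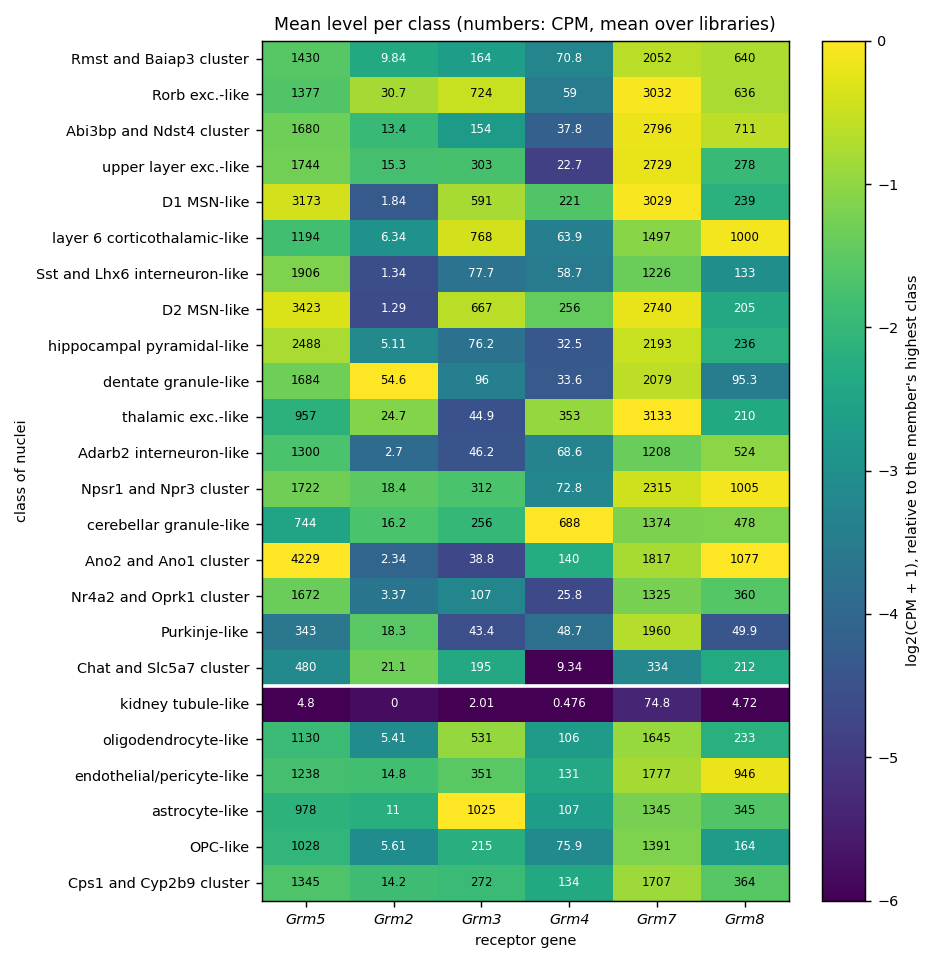
Levels of the 6 detected receptors in the 24 classes, each cell being the mean over libraries and the colour the level relative to the receptor's highest class. Grm5 and Grm7 were high in many neuron-like classes, while Grm4 was concentrated in few. Grm2 was highest in dentate granule neuron-like nuclei, and all 6 were near 0 in kidney tubule-like nuclei.

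Grm5, the group I receptor, was highest in an unnamed cluster led by Ano2 and Ano1 and in striatal medium spiny neurons. In the Ano2 and Ano1 cluster Grm5 had 4607 and 4353 CPM in Index_frozen, 4206 and 3756 in No_index_fresh and 4225 in Index_fresh, a mean of 4229 ± 309 (SD, n = 5). D2 medium spiny neuron-like nuclei had 3423 ± 408 and D1 medium spiny neuron-like nuclei 3173 ± 254 (both n = 7). The Ano2 and Ano1 cluster was first in 5 of 5 libraries, by 0.29 on the log2 scale over the D2 class (SD 0.14), but with 5 libraries the exact test cannot go below p = 0.0625, so the step could not pass. Next came hippocampal pyramidal neuron-like nuclei with 2488 ± 249 CPM and Sst and Lhx6 interneuron-like nuclei with 1906 ± 215. D1 exceeded hippocampal pyramidal nuclei by 0.35 on the log2 scale (SD 0.14) and these exceeded Sst and Lhx6 nuclei by 0.39 (SD 0.21), each in 7 of 7 libraries (exact p = 0.015625, adjusted p = 0.339). From there the order was flat, with upper layer, Npsr1 and Npr3, dentate granule and Abi3bp and Ndst4 classes between 1680 and 1744 CPM. Grm5 was lowest among neuron-like classes in Purkinje neuron-like nuclei, at 343 CPM over 3 libraries with an SD of 323, and in the Chat and Slc5a7 cluster, at 480 CPM over 2 libraries.

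Grm2, the group II receptor of cortical and hippocampal terminals, was highest in dentate granule neuron-like nuclei. It had 33.1 and 44.2 CPM there in No_index_frozen, 36.0 and 50.2 in Index_frozen, 85.6 and 75.4 in No_index_fresh and 57.4 in Index_fresh, a mean of 54.6 ± 19.7 (SD, n = 7). All 3 fresh libraries were above all 4 frozen ones in this class, a split that was seen after the values and was not tested. Rorb excitatory neuron-like nuclei followed with 30.7 ± 11.4 CPM and thalamic excitatory neuron-like nuclei with 24.7 ± 5.80. The dentate class exceeded the Rorb class in 7 of 7 libraries, by 0.82 on the log2 scale (SD 0.63, exact p = 0.015625, adjusted p = 0.339). Medium spiny neurons had little Grm2, with 1.84 CPM in the D1 and 1.29 CPM in the D2 class, and Sst and Lhx6 interneuron-like nuclei had 1.34. Per kb, Grm2 made up 42.2% of the summed level of the 7 receptors in dentate granule neuron-like nuclei. Its share was 42.1% in the Chat and Slc5a7 cluster, over 2 libraries. These shares depend on the scaling by span. In a finer clustering (resolution 1.0), dentate granule neuron-like nuclei had 54.5 CPM of Grm2, 1682 of Grm5 and 2082 of Grm7.

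Grm3, the second group II receptor, was highest in astrocyte-like nuclei and high in several neuron-like classes. Astrocyte-like nuclei had 454 and 617 CPM in No_index_frozen, 1910 and 1564 in Index_frozen, 840 and 855 in No_index_fresh and 932 in Index_fresh, a mean of 1025 ± 523 (SD, n = 7). The 3 preindex libraries were above the 4 others, with no overlap, a split that was not tested. The class was first in only 5 of 7 libraries. Layer 6 corticothalamic neuron-like nuclei had 768 ± 124 CPM, Rorb excitatory neuron-like 724 ± 163, D2 667 ± 90.5, D1 591 ± 70.0 and oligodendrocyte-like 531 ± 136. Among these, the difference of neighbours was within the spread, that of astrocyte-like over layer 6 nuclei being 0.28 on the log2 scale with an SD of 0.82 (exact p = 0.40625, adjusted p = 0.890). Thalamic excitatory neuron-like nuclei, with 44.9 CPM, and the Ano2 and Ano1 cluster, with 38.8, were the lowest neuron-like classes apart from Purkinje neuron-like nuclei with 43.4. In a finer clustering (resolution 1.0) a cluster led by Fign and Six3 was the highest for Grm3. It had 1590 ± 189 CPM over 2 libraries, against 1016 ± 525 in astrocyte-like nuclei over 7.

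Grm4, the group III receptor of cerebellar parallel fibres, was highest in the neurons that form those fibres. Cerebellar granule neuron-like nuclei had 565 and 617 CPM in No_index_frozen and 815 and 754 in No_index_fresh, a mean of 688 ± 116 (SD, n = 4); the preindex libraries held too few of these nuclei to give a level. Thalamic excitatory neuron-like nuclei had 353 ± 63.0 CPM, D2 medium spiny neuron-like 256 ± 39.7 and D1 221 ± 19.7. The granule class was first in all 4 libraries, by 0.84 on the log2 scale (SD 0.17), where the smallest exact p is 0.125 and the adjusted p was 0.739. The thalamic class exceeded the D2 class in 7 of 7 libraries, by 0.46 (exact p = 0.015625, adjusted p = 0.339). Per kb, Grm4 made up 55.9% of the summed receptor level in cerebellar granule neuron-like and 33.3% in thalamic nuclei. Cortical upper layer neuron-like nuclei had 22.7 CPM.

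Grm7, the most widely spread of the group III receptors, was high in most neuron-like classes. Thalamic excitatory neuron-like nuclei had 2843 and 2933 CPM in No_index_frozen, 3433 and 3489 in Index_frozen, 3195 and 2725 in No_index_fresh and 3317 in Index_fresh, a mean of 3133 ± 301 (SD, n = 7). Rorb excitatory neuron-like nuclei had 3032 ± 267 CPM, D1 medium spiny 3029 ± 234, the Abi3bp and Ndst4 cluster 2796 ± 133, D2 medium spiny 2740 ± 223 and upper layer nuclei 2729 ± 170. The first 3 could not be ordered: thalamic nuclei exceeded Rorb nuclei by 0.05 on the log2 scale (SD 0.10, exact p = 0.265625, adjusted p = 0.8125) and were the first of all classes in 4 of 7 libraries. The interneuron-like classes were lower, with 1226 CPM in the Sst and Lhx6 and 1208 in the Adarb2 class. In a finer clustering (resolution 1.0), however, a cluster led by Sst and Elfn1 had 2206 ± 227 CPM. A cluster led by Eya4 and Cemip, with markers of Lhx6 interneurons without Sst, had 478 ± 192. The lower level thus does not hold for all interneurons. The Chat and Slc5a7 cluster had 334 CPM over 2 libraries. In the finer clustering the Rorb class was the highest for Grm7, at 3850 ± 414 CPM, against 3133 ± 301 in thalamic nuclei.

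Grm8, the remaining group III receptor, was highest in the Ano2 and Ano1 cluster and in deep cortical neurons, with a large spread. The Ano2 and Ano1 cluster had 1358 and 1405 CPM in Index_frozen, 1189 and 822 in No_index_fresh and 608 in Index_fresh, a mean of 1077 ± 348 (SD, n = 5). The Npsr1 and Npr3 cluster had 1005 ± 122 CPM and layer 6 corticothalamic neuron-like nuclei 1000.3 ± 165. Within libraries the Ano2 and Ano1 and the Npsr1 and Npr3 clusters differed by -0.0042 on the log2 scale (SD 0.40, exact p = 1, adjusted p = 1), so neither could be placed first. Dentate granule neuron-like nuclei had 95.3 CPM and Purkinje neuron-like nuclei 49.9.

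A high Grm8 level in the endothelial- and pericyte-like class, 946 ± 207 CPM over 6 libraries, lay mostly in nuclei with little of an endothelial marker. With a finer clustering, 102 of its 201 nuclei stayed endothelial- and pericyte-like and had 371 CPM of Grm8 with 1292 CPM of the endothelial gene Flt1. The other 99 fell into a cluster led by Tshz1 and Cpa6, which had 1495 CPM of Grm8 and only 2.46 CPM of Flt1. In the finer clustering the Tshz1 and Cpa6 cluster was the highest of all classes for Grm8, at 1618 ± 361 CPM over 4 libraries. The Grm8 level of this class is therefore not read as one of endothelial cells or pericytes.

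**Figure D2:**
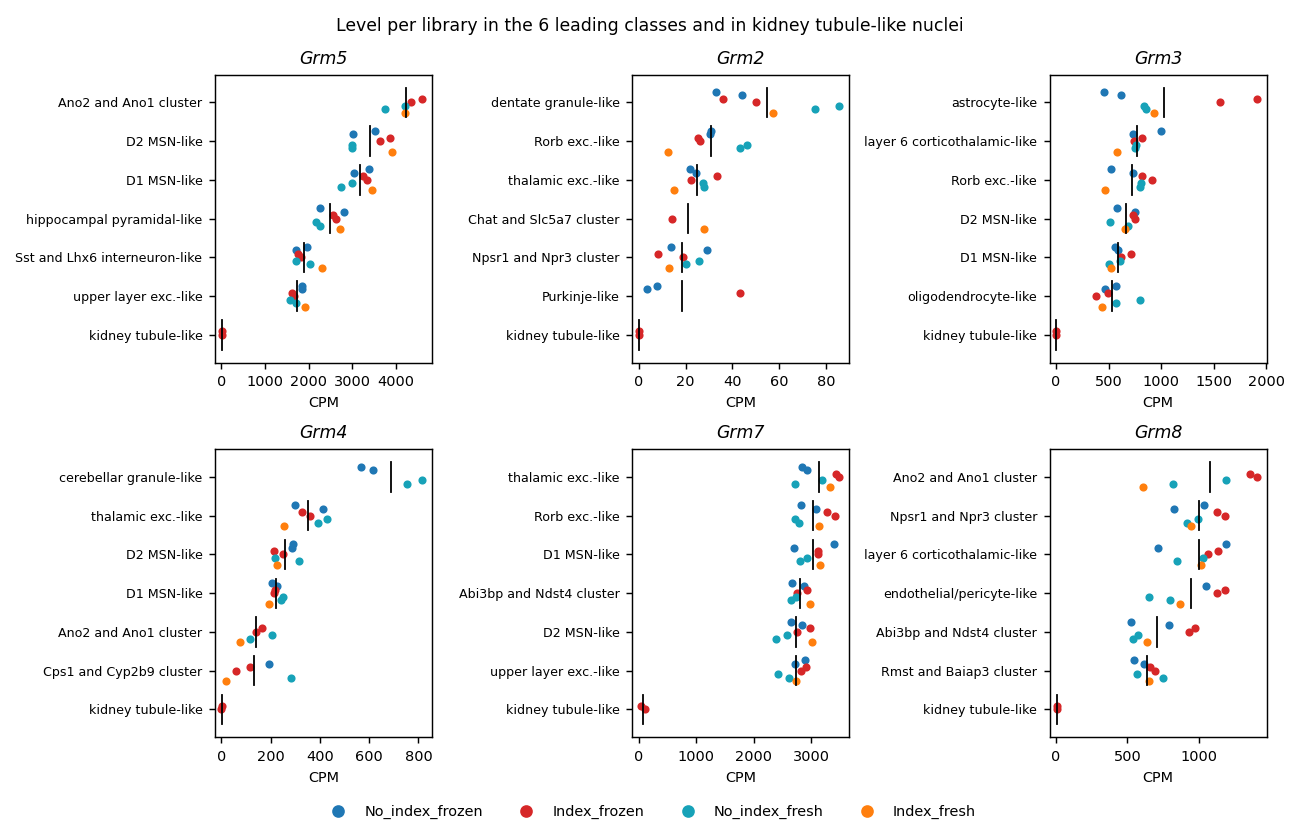
Level of each of the 6 detected receptors per library in its 6 leading classes, in CPM, with 1 point per library coloured by group and a bar at the mean, and in kidney tubule-like nuclei below them. Grm4 in cerebellar granule neuron-like nuclei (565 to 815 CPM) stood clear of its next class, whereas the leading classes of Grm7 and Grm8 overlapped.

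In most of their leading classes the receptors were found in a majority of nuclei. To compare at equal depth, each nucleus was thinned to 3000 UFIs. Grm5 was then found in 100% of the 151 nuclei of the Ano2 and Ano1 cluster (exact 95% interval from 97.6%, 100% unthinned) and Grm7 in 96.3% of 349 thalamic nuclei (93.7 to 98.0%, 99.7% unthinned). Grm3 was found in 79.5% of 190 astrocyte-like nuclei (73.0 to 85.0%, 95.8% unthinned), Grm8 in 72.2% of the Ano2 and Ano1 cluster (64.3 to 79.2%, 86.1% unthinned) and Grm4 in 66.5% of 260 cerebellar granule neuron-like nuclei (60.4 to 72.2%, 87.3% unthinned). Grm2, the shortest gene of these, was found in 14.4% of 418 dentate granule neuron-like nuclei (11.1 to 18.1%, 46.9% unthinned). Kidney tubule-like nuclei, which should lack these receptors, occurred in the Index_frozen libraries alone: of 481 such nuclei 0 had Grm2 or Grm4, which allows a share of up to 0.624% (3 counts), 0.416% had Grm3, 1.04% Grm8, 1.87% Grm5 and 6.86% Grm7. Unthinned, the shares in kidney tubule-like nuclei were 0 for Grm2, 0.416% for Grm4, 1.66% for Grm3, 2.91% for Grm8, 4.37% for Grm5 and 11.6% for Grm7. The median depth before thinning was 8765 UFIs in kidney tubule-like nuclei and 12382 to 15711 in the leading classes. These nuclei also had few neuron markers, so their shares do not measure what brain nuclei carry of each other's RNA. Intervals cover counting error only.

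**Figure D3:**
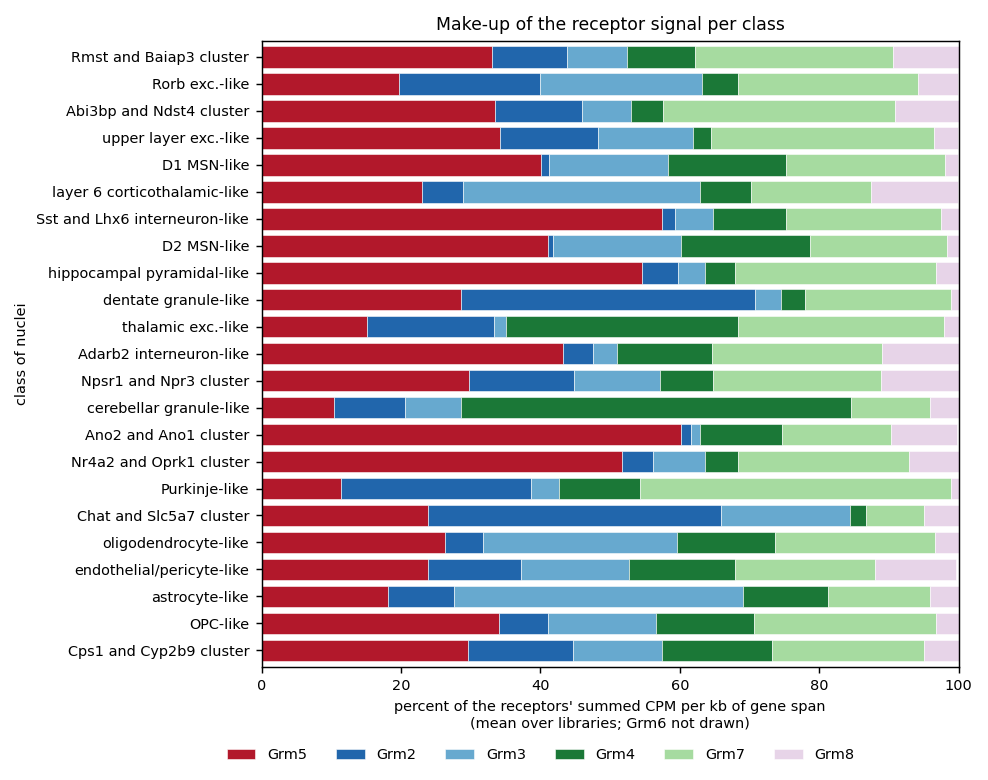
Share of each receptor in the summed level per kb of the receptors in each class other than kidney tubule-like, in percent as the mean over libraries. The scale takes UFIs as evenly spread over the gene span, which was not tested. Grm5 led in the Ano2 and Ano1 cluster (60.1%) and in Sst and Lhx6 interneuron-like nuclei (57.4%), and Grm4 in cerebellar granule neuron-like nuclei (55.9%). Grm2 led in dentate granule neuron-like nuclei (42.2%) and in the Chat and Slc5a7 cluster (42.1%, 2 libraries), and Grm3 in astrocyte-like nuclei (41.5%).

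Classes that were not neuron-like carried Grm5 and Grm7 together with neuron markers. In the 5 classes other than kidney tubule-like, Grm5 was at 58.3 to 80.3% and Grm7 at 65.1 to 86.0% of the median of the 18 neuron-like classes. The neuron markers Rbfox3, Snap25 and Syt1 were at 41.9 to 85.3% of theirs in the same classes. The upper ends of Grm7 and of the markers are those of the endothelial- and pericyte-like class, of which 99 of 201 nuclei had little Flt1. In kidney tubule-like nuclei these markers were at 0.315 to 0.758%, Grm5 at 0.287% and Grm7 at 3.62%. Grm3 was the highest on this scale, at 644% of the neuron-like median in astrocyte-like and 334% in oligodendrocyte-like nuclei. It was not alone above that median, as Grm4 was at 123 to 218% in the 5 classes. Grm8 was at 297% in the endothelial- and pericyte-like class and 108% in astrocyte-like nuclei. It was at 73.3% in oligodendrocyte-like and 51.4% in OPC-like nuclei. Grm2 was above its median of 11.6 CPM in the endothelial- and pericyte-like class and an unnamed cluster led by Cps1 and Cyp2b9, and otherwise below it. In the finer clustering, endothelial- and pericyte-like nuclei had 10.1 ± 5.29 CPM of Grm2. The Tshz1 and Cpa6 cluster had 27.9 ± 16.9 over 4 libraries.

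**Figure D4:**
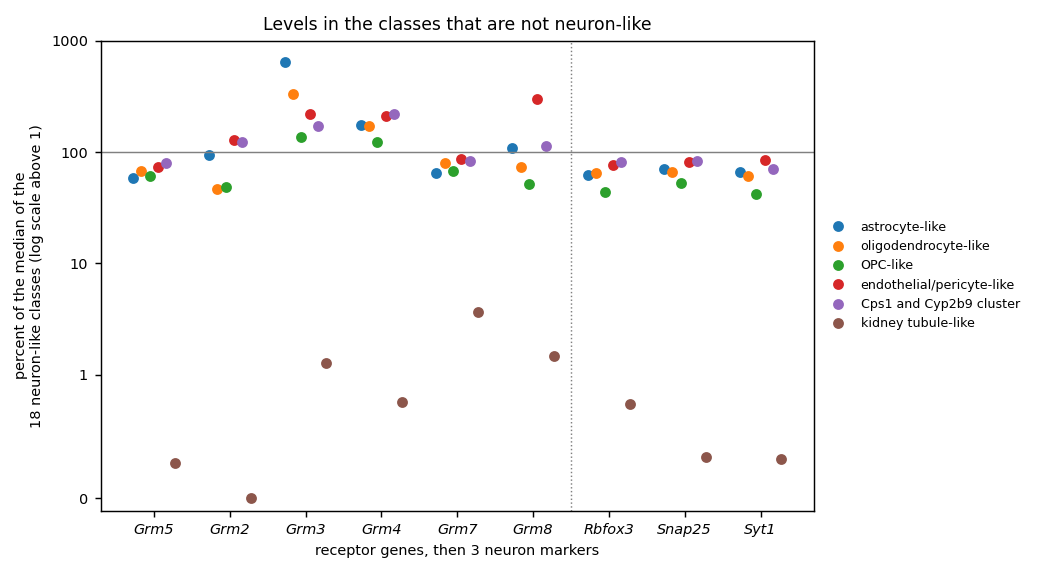
Level of receptors and of 3 neuron markers in the classes that are not neuron-like, as a percentage of the median of the 18 neuron-like classes. In the 5 classes other than kidney tubule-like, Grm5 and Grm7 lie at 58.3 to 86.0% and the markers at 41.9 to 85.3%, all are near 0 in kidney tubule-like nuclei, and Grm3 in astrocyte-like nuclei reaches 644%.

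Glial nuclei without any neuron marker held lower levels of Grm5 and Grm7. This split, by whether a nucleus had a UFI of Rbfox3, Snap25, Syt1, Stmn2 or Grin1, was chosen after the data had been seen and compares pooled UFIs with Poisson intervals that cover counting error only. It selects nuclei for the lack of neuron transcripts, so lower levels of other neuron transcripts can follow from the choice itself. How many other genes were lower was not counted. In 25 astrocyte-like nuclei without a marker (median 8080 UFIs), Grm3 had 3313 CPM (3067 to 3573), Grm5 153 (104 to 217) and Grm7 34.5 (13.9 to 71.0). Grm2, Grm4 and Grm8 had 0 UFIs there, with an upper limit of 18.2 CPM. The 165 astrocyte-like nuclei with a marker (median 13888 UFIs, from all 7 libraries) had 936 CPM of Grm3, 926 of Grm5, 1317 of Grm7, 333 of Grm8 and 130 of Grm4. They had 9.51 CPM of Grm2, below that limit, so a difference in Grm2 was not detectable at this depth. The difference for Grm3 was in the same direction in each of the 3 libraries with such nuclei: 3104 against 1537 CPM and 3965 against 1291 in Index_frozen, and 3211 against 614 in Index_fresh.

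Oligodendrocyte-like nuclei and oligodendrocyte precursor (OPC)-like nuclei kept some Grm7 without neuron markers. In 40 oligodendrocyte-like nuclei without a marker, Grm7 had 482 CPM (416 to 556), Grm3 328 (274 to 390), Grm5 124 (91.5 to 164) and Grm8 20.2 (8.72 to 39.8), against 1776, 555, 1168 and 273 CPM in the 236 nuclei with a marker. In 27 OPC-like nuclei without a marker, Grm7 had 874 CPM (754 to 1007), Grm5 333 (260 to 419) and Grm3 134 (89.8 to 193), against 1363, 1099 and 234 CPM in 129 with a marker. The nuclei with a marker came from all 7 libraries. Within libraries, Grm7 in OPC-like nuclei was 665 CPM without and 799 with a marker in Index_frozen replicate 1. It was 1661 against 1816 in replicate 2 and 943 against 1167 in Index_fresh. Grm3 was higher without a marker in oligodendrocyte-like nuclei of Index_frozen replicate 2 (435 against 367 CPM). The same held in OPC-like nuclei of Index_frozen replicate 1 (199 against 192), and Grm3 was otherwise lower. In OPC-like nuclei without a marker it had 0 CPM in Index_frozen replicate 2 (3 nuclei) and in Index_fresh (7 nuclei). The pooled Grm3 level of these OPC-like nuclei thus came from Index_frozen replicate 1 alone.

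In these 3 classes, nuclei without a neuron marker came from the preindex libraries alone. Of astrocyte-like nuclei, 23.1% of 108 in preindex libraries had none (exact 95% interval 15.6 to 32.2%) and 0 of 82 in the others (0 to 4.399%). Of oligodendrocyte-like nuclei it was 26.3% of 152 (19.5 to 34.1%) against 0 of 124 (0 to 2.93%), and of OPC-like nuclei 27.0% of 100 (18.6 to 36.8%) against 0 of 56 (0 to 6.38%). The median depth of these nuclei was 8607 to 10613.5 UFIs with preindex and 18528.5 to 19625.5 without, and the part of depth in these shares was not tested. The intervals pool nuclei of several libraries and do not cover the spread between libraries. Per preindex library (Index_frozen replicates 1 and 2, then Index_fresh), the share was 30.6, 13.3 and 20.7% of astrocyte-like nuclei. It was 23.2, 32.1 and 23.3% of oligodendrocyte-like and 39.5, 11.1 and 23.3% of OPC-like nuclei.

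Over the 24 classes, the receptors' own patterns were most alike for Grm5 and Grm7 (Pearson r = 0.849 of log2(CPM + 1) of class means) and least for Grm2 and Grm4 (r = 0.194). The points share libraries and neuron content, and r is a description. They include kidney tubule-like nuclei, with 4.80 CPM of Grm5 and 74.8 of Grm7, and the part of that class in each r was not tested. Among 12456 genes with at least 10 CPM in 1 class, the pattern most like that of Grm5 was Unc79 (r = 0.969), followed by Myt1l (0.951) and Tmem132b (0.949). For Grm7 these were Cyp46a1 (0.956), Zfyve28 (0.929) and Adgrb1 (0.914). For Grm2 they were Nrn1 (0.907), Fn3krp (0.779) and Olfm1 (0.770), and for Grm3 Cacna1i (0.833), Nrg1 (0.827) and Gpm6b (0.800). Nrn1, which encodes the secreted protein neuritin, stood clear of the next gene in likeness to Grm2. For Grm4 they were Cntn6 (0.804), Camk4 (0.800) and Ptpn5 (0.790), and for Grm8 Dcx (0.888), Samd12 (0.864) and Gap43 (0.862).

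Storage changed no receptor past the test. Summed over all nuclei, 0 of the 6 tested receptors differed between frozen and fresh libraries in edgeR's quasi-likelihood test with Benjamini-Hochberg adjustment, beside 0.207% of 19299 genes (40 genes, with 2901 below an unadjusted 0.05). By DESeq2 the counts were 318 genes (1.65%) and 0 receptors. Grm2 had 11.5 and 12.1 CPM in No_index_frozen and 9.62 and 9.69 in Index_frozen, against 19.8 and 20.03 in No_index_fresh and 9.87 in Index_fresh. Without preindex both fresh libraries were above both frozen ones, and with preindex the 3 libraries lay between 9.62 and 9.87 CPM. The log2 difference of frozen minus fresh was -0.46 (SE 0.13, adjusted p = 0.184). In neuron-like nuclei, left without the cerebellar granule class, 0 of 6 receptors differed, beside 0.513% of 17943 genes, or 92 genes. These counts depended on the lone Index_fresh library. Without it 840 genes (4.63%) passed in all nuclei, and among them Grm2 at -0.70 (adjusted p = 4.16e-04) and Grm4 at 0.35 (adjusted p = 0.00162). In neuron-like nuclei 3 receptors then passed, beside 5.01% of genes, with Grm2 at -0.72 (adjusted p = 5.63e-04), Grm5 at 0.18 (adjusted p = 0.0344) and Grm7 at 0.17 (adjusted p = 0.0285). Without that library the storage difference rests on the No_index libraries alone. A deviation of that library and a storage difference that varies with the primer cannot be told apart here.

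The preindex primer went with lower Grm4 and Grm2 and higher Grm8. In all nuclei 3 of 6 receptors passed, beside 15.8% of 19299 genes (7.88% higher and 7.88% lower). Grm4 had 145 and 159 CPM in No_index_frozen and 119 and 128.1 in No_index_fresh, against 69.4 and 73.3 in Index_frozen and 73.8 in Index_fresh. The groups did not overlap, and Grm4 fell by 0.86 on the log2 scale (SE 0.09, adjusted p = 0.00245). Grm2 fell by 0.51 (SE 0.13, adjusted p = 0.0393) and Grm8, with 436 to 500.2 CPM without and 480 to 501 with preindex, rose by 0.18 (SE 0.04, adjusted p = 0.0204). The log2 differences are normalised by edgeR's trimmed mean of M-values and the CPM are not, so their sizes can differ. In CPM, Grm2, given above, did not overlap between primers either, whereas Grm8 did. The call of Grm4 was kept with each library left out in turn, but that of Grm2 was lost whichever of the 7 libraries was left out (adjusted p = 0.0584 to 0.0920), and it was -0.25 without Index_fresh. That of Grm8 was lost without No_index_frozen replicate 2 (adjusted p = 0.0666), Index_frozen replicate 1 (0.0829), Index_frozen replicate 2 (0.0982) or No_index_fresh replicate 1 (0.0544). Grm5 at 0.28 (adjusted p = 0.0641), Grm7 at 0.22 (adjusted p = 0.0872) and Grm3 at 0.17 (adjusted p = 0.310) did not pass. Without the kidney and liver clusters, where 19.3% of genes passed, Grm5 at 0.40 (adjusted p = 0.00123) and Grm7 at 0.34 (adjusted p = 0.00105) passed and Grm2 at -0.40 (adjusted p = 0.0859) did not. The liver cluster here is the unnamed cluster of 89 nuclei led by Cps1 and Cyp2b9. It had 7 of 7 microglia markers and 4 of 5 liver markers raised, so leaving it out also removed microglia-like nuclei. At resolution 1.0 a microglia-like cluster led by Inpp5d and Csf1r had 70 nuclei. A liver-like cluster had 19 there, all in Index_fresh.

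In bulk sums, fewer nuclei of a class and less RNA per nucleus cannot be told apart, and the classes of highest Grm4 were unequal between primers. Without the cerebellar granule neuron-like nuclei, where 13.3% of genes passed, the log2 difference of Grm4 was -0.45 (SE 0.07, adjusted p = 0.00806), and in neuron-like nuclei it was -0.21 (SE 0.05, adjusted p = 0.0119; 0.0570 without Index_frozen replicate 1). Values by primer are given below for single classes chosen after they had been seen. Whether the difference varied between classes was not tested. How many genes showed no overlap between primers within a class was not counted. In dentate granule neuron-like nuclei Grm4 had 80.8 and 63.1 CPM in No_index_frozen and 15.6 and 55.7 in No_index_fresh, against 8.41 and 8.57 in Index_frozen and 2.97 in Index_fresh. In astrocyte-like nuclei it had 97.3 to 218 CPM without and 6.95 to 72.8 with preindex, again with no overlap. In D1 medium spiny neuron-like nuclei, where Grm4 is high, the values were 204 to 249 without and 195 to 218 with preindex and overlapped. In upper layer excitatory neuron-like nuclei, where Grm4 is low, it ranged from 16.7 to 28.6 CPM over the 7 libraries. The part of the cerebellar granule neuron-like nuclei in these values was not tested.

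In neuron-like nuclei 4 of 6 receptors passed the primer test, beside 18.8% of 17943 genes (10.1% higher and 8.71% lower). Grm5 rose by 0.34 on the log2 scale (SE 0.05, adjusted p = 0.00231), Grm7 by 0.30 (SE 0.05, adjusted p = 0.00208) and Grm8 by 0.30 (SE 0.06, adjusted p = 0.0047), while Grm4 fell. Grm7 had 2319 and 2299.8 CPM in No_index_frozen and 2135 and 2129.95 in No_index_fresh, against 2449 and 2516 in Index_frozen and 2539 in Index_fresh, and Grm5 likewise did not overlap between primers. In these CPM, which lack edgeR's normalisation, the gap of Grm7 was smaller than its log2 difference above. Grm2 at -0.44 (adjusted p = 0.0785) and Grm3 at 0.28 (adjusted p = 0.0906) did not pass. The neuron-like sums hold the Ano2 and Ano1 cluster, with high Grm5 and Grm8, which had 0 nuclei in both No_index_frozen libraries. Its part in the differences by primer was not tested. When 16 classes with at least 10 nuclei in every library were weighted equally, the log2 difference of Grm4 was -0.56, which had the smallest p that 7 libraries allow (exact permutation test, p = 0.0286), but 0 of 14 such tests passed adjustment (adjusted p = 0.267). On that scale Grm7 differed by 0.14 and Grm8 by 0.10 (exact p = 0.0571 for both, adjusted p = 0.267).

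**Figure D5:**
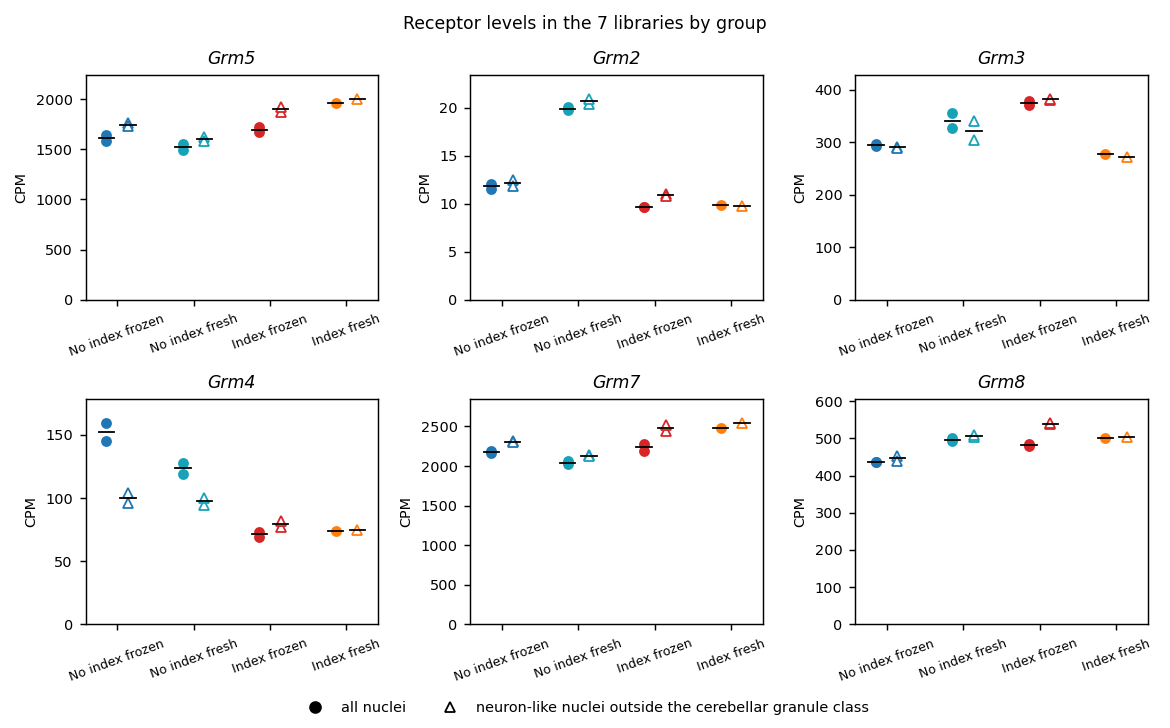
Level of the 6 detected receptors in each of the 7 libraries, by group, for all nuclei together and for the neuron-like ones. Grm4 was at 119 to 159 CPM over all nuclei without preindex and at 69.4 to 73.8 with it, and the gap was smaller in neuron-like nuclei.

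How the frozen minus fresh difference varied with the primer rests on 1 Index_fresh library, so an effect of the primer and a deviation of that library cannot be told apart. In the test of the interaction 5 of 6 receptors passed over all nuclei, beside 16.4% of genes (9.93% higher and 6.49% lower). Coded as the frozen minus fresh difference with preindex less that without, it was 0.62 for Grm2 (SE 0.13, adjusted p = 0.00522) and 0.55 for Grm3 (SE 0.07, adjusted p = 1.13e-04). It was negative for Grm4, at -0.45 (SE 0.08, adjusted p = 0.00168), Grm5, at -0.39 (SE 0.07, adjusted p = 0.00218), and Grm7, at -0.34 (SE 0.07, adjusted p = 0.00299). Grm8 did not pass, at 0.04 (adjusted p = 0.750). Without the cerebellar granule neuron-like nuclei, where 16% of genes passed, Grm4 was at -0.22 (adjusted p = 0.146). Without the kidney and liver clusters, where 7.92% of genes passed, Grm5 was at -0.24 (adjusted p = 0.0617) and Grm7 at -0.17 (adjusted p = 0.121).

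In neuron-like nuclei 2 of 6 receptors passed, beside 6.29% of genes. There, in an alternative added after the data had been seen, the interaction was 0.89 for Grm2 (adjusted p = 0.00199) and 0.61 for Grm3 (adjusted p = 4.9e-04), whereas Grm5 was at -0.24 (adjusted p = 0.0539), Grm7 at -0.19 (adjusted p = 0.108) and Grm4 at 0.01 (adjusted p = 0.963). In neuron-like nuclei Grm3 had 382 and 383 CPM in Index_frozen against 271 in Index_fresh, and 292 and 290 in No_index_frozen against 305 and 340 in No_index_fresh. With preindex Grm3 was thus higher in the frozen libraries, and without it lower. Grm2 had 10.99 and 10.8 CPM in Index_frozen against 9.78 in Index_fresh, and 12.5 and 11.8 in No_index_frozen against 20.3 and 20.9 in No_index_fresh.

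Some partners of the receptors passed the primer test, and 0 passed the storage test, which few genes passed at all. Of 53 genes listed in 6 roles, 52 were tested. In all nuclei 0 passed the storage test (adjusted p over all genes), beside 0.207% of all genes. Their median log2 difference was -0.04, beside 0.0081 over all genes. In neuron-like nuclei 0 passed, beside 0.513% of all genes. At such shares a count of 0 among 52 genes does not set the partners apart. With preindex 6 rose and 12 fell in all nuclei, with a median log2 difference of -0.06 beside -0.02 over all genes, and 14 rose and 11 fell in neuron-like nuclei. Over all genes 7.88% rose and 7.88% fell in all nuclei, and 10.1% rose and 8.71% fell in neuron-like nuclei.

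Among scaffolds, 1 of 10 rose and 3 fell in all nuclei, and 3 rose and 3 fell in neuron-like nuclei. Homer3, a Homer scaffold that is abundant in Purkinje neurons, had 15.2 and 9.50 CPM in No_index_frozen and 3.19 and 3.79 in No_index_fresh, against 1.90 and 1.35 in Index_frozen and 1.25 in Index_fresh. The log2 difference was -2.31 (SE 0.36, adjusted p = 0.00741), and Purkinje neuron-like nuclei numbered 24 and 22 in No_index_frozen, 12 and 4 in Index_frozen, 2 and 6 in No_index_fresh and 8 in Index_fresh; their part in it was not tested. Ncdn, which encodes the group I receptor partner neurochondrin, fell by 0.71 in all nuclei (SE 0.05, adjusted p = 6.88e-04), and Shank1, a scaffold of the postsynaptic density, by 0.39 (SE 0.10, adjusted p = 0.0426). In neuron-like nuclei Homer1, whose product links group I receptors to inositol trisphosphate receptors, rose by 0.66 (SE 0.14, adjusted p = 0.00919). It had 490 CPM in Index_fresh, 261 and 265 in Index_frozen and 226 to 249 without preindex, so that the Index_fresh library stood apart.

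Of 16 genes of the Gq pathway used by Grm5, 3 rose and 3 fell in all nuclei and 5 rose and 4 fell in neuron-like nuclei. Plcb1, a phospholipase C, rose by 0.40 in all nuclei (SE 0.05, adjusted p = 0.003), whereas the G protein gene Gna11 fell by 0.38 (SE 0.09, adjusted p = 0.0340). In neuron-like nuclei Plcb3 fell by 2.15 (SE 0.58, adjusted p = 0.0278) and Itpr2, an inositol trisphosphate receptor gene, by 0.53 (SE 0.09, adjusted p = 0.00333).

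Of 11 genes of the Gi/o pathway used by the other receptors, 1 rose and 4 fell in all nuclei and 4 rose and 2 fell in neuron-like nuclei. Adcy5, the main adenylyl cyclase of striatum, rose by 0.31 in all nuclei (SE 0.07, adjusted p = 0.0208), while Adcy1 fell by 0.51 (SE 0.05, adjusted p = 0.00146) and Gnai2 by 0.31 (SE 0.08, adjusted p = 0.0348). Elfn2, which binds group III receptors across the synapse, fell by 0.22 (SE 0.04, adjusted p = 0.0147), the 1 gene of 6 in its role to pass. Rimklb, an enzyme that makes the Grm3 agonist N-acetylaspartylglutamate, rose by 0.26 (SE 0.05, adjusted p = 0.0191), and was the 1 gene of 4 in its role to pass. Among 5 regulators of G protein signalling, Rgs8 alone passed in all nuclei and fell by 0.73 (SE 0.17, adjusted p = 0.0269), and in neuron-like nuclei Rgs7 rose by 0.24 (SE 0.05, adjusted p = 0.00683) as Rgs8 fell by 0.65 (SE 0.13, adjusted p = 0.00817).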

How the data were processed

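The brain files hold raw UFI counts, genes by nuclei, 1 file per library, as the authors deposited them. Per the labels and the study's methods the authors trimmed poly-A tails with cutadapt, picked barcodes with UMI-tools at a read number set by hand, mapped the reads with STAR, retained those with 1 position, assigned them to genes with featureCounts and counted UFIs with UMI-tools. The submitters' processing notes name GRCm38 and mm10 without versions of the tools. Genes were matched by symbol. The species-mix files were not used here.

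All nuclei were kept and no doublet caller was run, and the deepest 5% of nuclei of each library were left out as an alternative. Nuclei were scaled to 10000 counts, logged, and clustered in scanpy 1.11.5 by the Leiden method (resolution 0.4, 10 neighbours, 40 principal components, 2000 variable genes). The receptors and their pathway genes were left out of the variable genes. To name a cluster, 3 or more markers of a list (and 50% or more of the list) had to exceed 2 times their mean elsewhere. A marker of the list also had to be among the 10 leading genes of the cluster, and no other list could have a larger share raised. Class names were preset for some lists or sets of lists only, so some unnamed clusters met the first rule. How a cluster was called neuron-like was settled once an initial clustering was known. Assigning single nuclei by their marker lists gave the same class for 46.3% of the nuclei of named classes, and 1693 nuclei lay within 0.1 of the next list.

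UFIs were summed per library and tested with edgeR 4.0.16 in R 4.3.3 (quasi-likelihood, trimmed mean of M-values, filterByExpr, storage and primer as terms, all 7 libraries), with Benjamini-Hochberg adjustment over all genes tested and a threshold of 0.05. DESeq2 1.42.0 was the alternative test. Neuron-like nuclei for these sums were 9545 nuclei without the cerebellar granule class. Exact permutation tests are two-sided. Tested on simulated counts for the storage comparison in all nuclei, with 18919 genes, the edgeR fit recovered 92% and 96% of genes changed by -1 and 1 on the log2 scale and 100% of those changed by -2 and 2, and 5.83% of its calls were genes left unchanged. The simulation gave all genes the same fixed spread between libraries, with no primer effect and no unequal tissue makeup. Only genes above a minimum count were changed. These rates therefore need not hold in the real libraries. The 2 libraries of each group differed beyond sampling noise (chi-square per degree of freedom 2.38 to 3.96), and each was counted as a sample. Intervals are at the 95% level, exact (Clopper-Pearson) for shares and exact Poisson for pooled CPM, and cover counting error only.

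The receptors, gene lists and markers were chosen with earlier results of these data known. Pathway genes were named where they passed the storage or primer test, at most 3 per role and comparison by the size of their change, and for each receptor the 3 genes with the most similar class means were named. Of the listed pathway genes Tamalin had no row under that symbol. A further gene that this rule would name is not reported here. The split of glial nuclei by neuron markers, the split of the endothelial- and pericyte-like class and the levels of Grm4 within single classes by primer were chosen after their values had been seen.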

Additional observations from a re-analysis of the deposited data

Results flagged for a closer look

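For 5 receptors the difference between frozen and fresh libraries differed between the primers in a test of the difference itself (edgeR's interaction of storage and primer, all nuclei): on the log2 scale it was 0.62 for Grm2, 0.55 for Grm3, -0.45 for Grm4, -0.39 for Grm5 and -0.34 for Grm7. All 5 rest on 1 Index_fresh library, whose own deviation cannot be told apart from an effect. Without the kidney and liver clusters (7.92% of genes passed), the first of which occurred in the Index_frozen libraries alone, the receptors that passed were Grm2, at 0.82, Grm3, at 0.72, and Grm4, at -0.30, and in neuron-like nuclei they were Grm2 and Grm3. A library standing apart from the others of its set was looked for in 30 sets of values and 0 were found, where chance gives about 1 in 20. Most of these sets were the 4 frozen libraries or the 4 without preindex and could not show Index_fresh.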

How the results depend on the processing

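The counts of genes past the storage test depended on the method: 40 in the reported fit, 318 with DESeq2, 1937 with no filter on low counts, 17 without the deepest 5% of nuclei, 5 with the replicate block, 0 with storage as the sole term, and 4 to 840 with 1 library left out. Receptors past it numbered 1 with no filter and 0 to 2 with a library left out in all nuclei. In neuron-like nuclei they numbered 1 with no filter, beside 781 of 33878 genes. With a library left out they numbered 0 to 3 there, beside 22 to 842 genes. Past the primer test in all nuclei, receptors numbered 5 with DESeq2 and 6 with no filter. They numbered 1 with the replicate block, 1 with primer alone and 1 to 3 with a library left out. Genes past it numbered 3041 as reported, 3071 with DESeq2, 1731 with the block and 2849 with primer alone, each of 19299. They numbered 4787 of 34496 with no filter and 1009 to 5668 with a library left out. Past the interaction test, receptors numbered 3 without the kidney and liver clusters, beside 1479 of 18686 genes. In neuron-like nuclei alone they numbered 2, beside 1129 of 17943 genes. Replicate numbers did not pair the libraries (correlations of their deviations -0.043, -0.013 and 0.042), and the block is given for its effect on these counts only.

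Directions also turned, among them that of 1 difference that had passed, the interaction of Grm4. Storage, all nuclei: Grm5 0.043 without the kidney and liver clusters (-0.096 to 0.13 with a library left out), Grm7 0.011 with the block, 0.024 with storage alone, 0.016 without the cerebellar granule class and 0.070 without the kidney and liver clusters (-0.051 to 0.14), Grm3 -0.16 to 0.13. Storage, neuron-like nuclei: Grm3 -0.096 to 0.24, and Grm8 0.029 with storage alone (-0.13 to 0.012). The interaction of Grm4 in all nuclei was -0.45 and was 0.012 in neuron-like nuclei. With equal class weights, a minimum of 20 nuclei gave -0.10 for Grm3 by primer (-0.048 to 0.23) and 0.0078 for Grm4 by storage (-0.21 to 0.17), and Grm5 by storage ranged from -0.016 to 0.13 and Grm6 from -0.044 to 0.078. That set of classes does not hold the cerebellar granule class, so leaving it out gives no other value there. The neuron-like sums are without it as reported. With it, added after the data had been seen, 0 receptors passed by storage, beside 85 of 18177 genes, and 4 by primer, beside 3821.

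The difference between the first 2 classes of Grm8 was 0.34 at resolution 1.0 and 0.15 with 20 nuclei (-0.080 to 0.15 with a library left out). Levels in the highest class moved at resolution 1.0 to 1590 CPM for Grm3 (a cluster led by Fign and Six3), 3722 for Grm5, 3850 for Grm7 (Rorb class) and 1618 for Grm8, with 20 components to 3236 for Grm5, and by marker assignment to 239 for Grm4 and 2972 for Grm5. Unthinned shares were 46.9% for Grm2, 95.8% for Grm3, 87.3% for Grm4, 99.7% for Grm7 and 86.1% for Grm8, and at 2000 UFIs Grm3 was at 68.9% and Grm4 at 54.2%. Other causes of these changes were not tested.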
